A study of Mus musculus with 21 samples.

Results

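The 6 arrays described here compare left ventricles of Tg(αMHC-MerCreMer) mice after 4 tamoxifen injections (3 arrays) with left ventricles of the same transgenic line after 4 control injections (3 arrays), out of 21 arrays in the study. They were chosen by the genotype, agent and number of injections in their labels, and all genes were described. Tamoxifen was given intraperitoneally at 40 mg/kg per day on 4 consecutive days, and mice aged 9 to 13 weeks were killed 4 days later. Each group held 1 male (replicate 1) and 2 female samples (replicates 2 and 3). Both groups carry the transgene, so the comparison shows tamoxifen in the presence of the fusion protein and not the transgene itself. The remaining arrays were MerCreMer samples after 1 tamoxifen or 1 control injection (3 arrays each) and wild-type samples after 4 tamoxifen (3 arrays) or 4 control injections (6 arrays). The labels do not say outright that each sample was a separate animal, so the p-values measure the spread between these samples.

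MerCreMer is a Cre recombinase fused on both sides to mutated oestrogen receptor domains that bind tamoxifen and not the natural hormone. The α-myosin heavy chain promoter expresses it in cardiomyocytes, where it stays in the cytoplasm until tamoxifen lets it enter the nucleus. The line is widely used to delete loxP-flanked genes in the adult heart, and Cre can also cut DNA at sequences that resemble loxP. The ventricle is a mixed tissue of cardiomyocytes, endothelial cells, fibroblasts, mural cells and macrophages, and its total RNA was measured in bulk. For every result below, fewer cells of a type and less RNA per cell cannot be told apart.

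The 3 treated arrays differed from the controls to very unequal extents. Each value is a log2 expression value, and a difference of 1 is a doubling. The median absolute difference from the mean of the 3 control arrays, over 11384 genes, was 0.198 on tamoxifen replicate 1, 0.133 on replicate 2 and 0.309 on replicate 3. A control array lay 0.0912 to 0.0996 from the mean of the other 2 controls. Genes at least 1 log2 unit above the control mean numbered 172, 75 and 579 on tamoxifen replicates 1, 2 and 3, and genes at least 1 below it numbered 105, 64 and 565. Replicate 2 was thus the mildest array by this measure and replicate 3 the most changed. The order was the same against control arrays of the same inferred array set (0.196, 0.158 and 0.305). These sets came from 13 bright probe sets without a gene name, whose mean was 10.3 to 10.4 on 4 MerCreMer arrays, among them tamoxifen replicate 2 and control replicate 1, and 10.5 to 10.7 on the other 8. What these sets are is not given in the sources used here.

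One treated array went against its label in part. Xist, the RNA that coats the inactive X chromosome, read 8.03 and 7.55 on the female control arrays, 7.83 on tamoxifen replicate 2 and 3.12 on tamoxifen replicate 3, all labelled female. The male arrays of the comparison read 3.23 and 3.55, and 9 other female arrays of the study read 7.38 to 7.94. The Y-linked genes Eif2s3y (1.93), Uty (2.54) and Kdm5d (2.1) were also low on tamoxifen replicate 3, at or near the female level, while 6 other male arrays read 6.71 to 7.55, 6.45 to 7.13 and 4.45 to 5.5. That array therefore matched neither the male nor the female pattern on these 4 genes, and the cause was not tested. For most called genes described below, values without it are given where they moved by over 1.5 times or lost a call. They are also given for most of the lists that differed most on it. Genes not called have no such values, among them Col1a1, Nppa, Nppb and Myh7, each farthest from the control mean on that array.

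**Figure D1:**
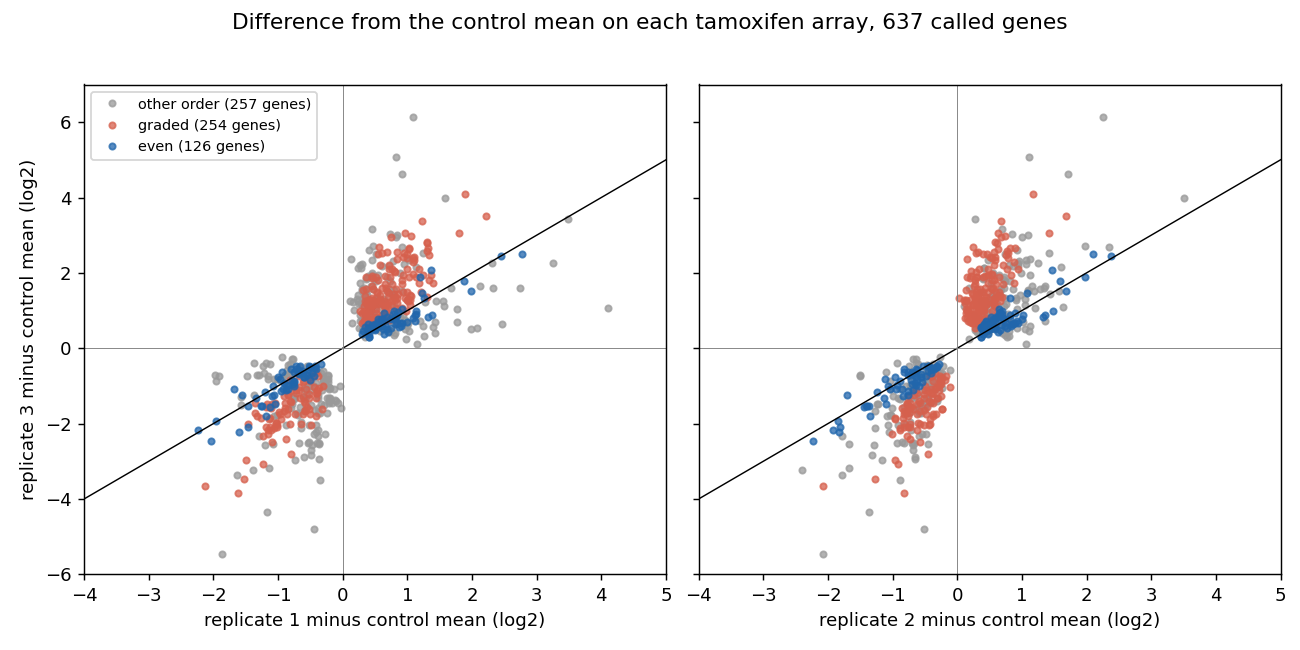
Difference of each called gene from the mean of the 3 MerCreMer 4 control arrays (log2), with tamoxifen replicate 3 on the y axis and replicate 1 (left) or replicate 2 (right) on the x axis. The black line marks equal differences. The 126 even genes lie along the line, and the 254 graded genes lie beyond it towards replicate 3.

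Cardiomyocyte markers were present, which does not separate ventricle from atrium. All 20 reached log2 5 on all 6 arrays, and their summed level was 16.44 to 16.45 in the controls and 16.34, 16.41 and 16.02 on tamoxifen replicates 1, 2 and 3. The summed level of 36 macrophage and monocyte markers was 11.38 to 11.42 in the controls and 12.32, 11.79 and 13.33 after tamoxifen. Atrial and conduction markers (13 genes) summed to 12.37 to 12.46 in the controls, to 12.12, 12.8 and 13.05 after tamoxifen and to 11.62 to 12.55 on the other arrays of the study. Bright genes weigh most in such a sum, among them Nppa, at 10.52 to 10.81 in the controls and 10.52, 11.95 and 12.59 after tamoxifen. The median difference from the control mean over the 11 tested genes of this list went down instead, at -0.12, -0.34 and -0.87. Every treated array lay above every control array for the macrophage sum, in the same order as the array differences. Epicardial and mesothelial markers (17 genes) summed to 9.46 to 9.5 in the controls and to 9.55, 9.95 and 10.92 after tamoxifen. Endothelial markers (29 genes) summed to 13.11 to 13.22 and to 13.2, 12.95 and 12.76. None of the 13 neutrophil markers and none of the 21 T, B and NK cell markers reached log2 5 on all 3 treated arrays, and the neutrophil genes S100a8 and S100a9 read at most 4.15 and 4.61 there.

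With 1 weight per group, limma called 637 of 11384 genes (5.6%) at an adjusted p under 0.05. Of these, 362 were higher (3.18%) and 275 lower (2.42%) after tamoxifen. All genes share the weight, so an error does not carry in full a gene's own spread on the treated arrays. Agt, for example, had a standard deviation of 1.73 on the treated arrays and an SE of 0.378. In 633 of the 637 the treated and control arrays did not overlap, and over all genes tested 27.9% did not overlap. Genes named below for their large changes were taken from those without overlap, so this was set in advance. The number called ranged from 18 with only the 6 arrays in the fit to 2654 with equal weights for all arrays. Without tamoxifen replicates 1, 2 and 3 in turn it was 276, 246 and 672, and without control replicate 3 it was 415. Of the 637 genes, 472 were called in the same direction without tamoxifen replicate 3. With the inferred array set as a block, over the 12 MerCreMer arrays, 251 genes were called, and 245 within the larger set alone. The balance of higher and lower genes turned to 309 higher and 355 lower when each array was centred on its median.

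Called genes were then split by their 3 treated arrays, as a description without a test. A gene was even where the 3 differences from the control mean had 1 sign and the smallest was at least 0.6 of the largest. It was graded where the smallest was under 0.6 of the largest and the sizes followed the order of the arrays, replicate 2, then 1, then 3. It was of another order where the sizes did not follow that order, and split where the signs differed. The 637 genes held 126 even (67 higher, 59 lower), 254 graded (165 higher, 89 lower), 257 of another order (130 higher, 127 lower) and 0 split genes. The 18 genes called with only the 6 arrays in the fit held 17 even, 0 graded and 1 of another order. That fit takes its errors from the spread of these arrays, and a small spread of the treated arrays also defines the even class. A lean to even genes was therefore built in and says nothing about the graded genes. At the limit, Slc25a26 (-0.76, -0.6 and -1.0 on replicates 1, 2 and 3) and Dtna (-0.73, -0.44 and -0.48) fell just inside the even class, and Dusp8 (0.89, 0.53 and 0.83) and Rab31 (0.91, 1.18 and 1.53) just outside it. The largest difference was on replicate 3 in 277 of the 362 higher genes and 215 of the 275 lower ones. It was at least 2 times the next largest in 147 higher genes, 139 of them led by replicate 3, and in 93 lower genes, 91 of them led by replicate 3.

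The even genes that fell were led by components of excitation and of the contractile apparatus. Cacna1c, the pore-forming subunit of the L-type calcium channel that triggers each contraction, read 9.62, 9.47 and 9.58 in the controls and 7.52, 7.33 and 7.11 on tamoxifen replicates 1, 2 and 3. The treated arrays were 4.72-fold lower on average (change -2.24, SE 0.15, limma adjusted p = 4.51e-08, n = 3 per group). Unless said otherwise, SEs and p-values come from the fit of all 21 arrays, so the other groups also inform the spread. With only the 6 arrays compared in the fit, the limma adjusted p for Cacna1c was 0.00609. Fhod3, a formin that assembles actin filaments in the cardiac sarcomere, read 9.32 on each control array and 7.36, 7.47 and 7.4 after tamoxifen (change -1.91, SE 0.115, limma adjusted p = 1.52e-08, and 0.00609 with the 6 arrays alone). Its 3 treated arrays lay close together, the mildest array included. Fgf13, an intracellular FGF homologous factor that modulates sodium channels, read 7.56, 7.52 and 7.56 against 5.31, 5.62 and 5.37 (change -2.11, SE 0.152).

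**Figure D2:**
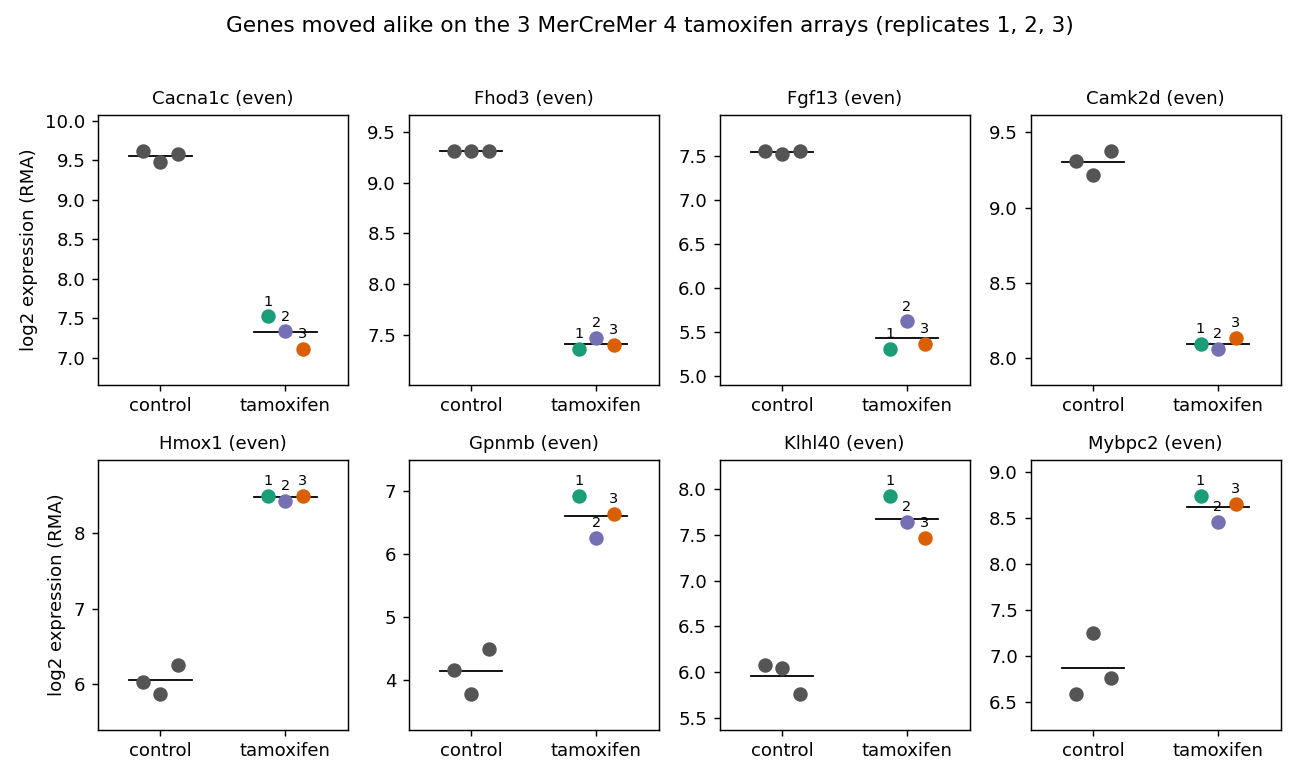
Log2 expression of 8 even genes on the 3 MerCreMer 4 control arrays (grey) and on tamoxifen replicates 1, 2 and 3 (coloured, numbered); black lines are group means. Cacna1c, Fhod3, Fgf13 and Camk2d lay lower and Hmox1, Gpnmb, Klhl40 and Mybpc2 higher on all 3 treated arrays.

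Signalling genes of the cardiomyocyte fell in the same even way. Camk2d, the main cardiac isoform of calcium/calmodulin-dependent kinase II, read 9.31, 9.22 and 9.38 in the controls and 8.09, 8.06 and 8.13 after tamoxifen (change -1.21, SE 0.133, limma adjusted p = 3.34e-05). Pde3a, the phosphodiesterase that degrades cAMP near the calcium pump, read 8.94, 9.56 and 9.16 against 7.76, 7.86 and 7.68. Akap6, an anchor of protein kinase A at the nuclear envelope, read 9.1, 9.16 and 9.13 against 7.44, 8.09 and 8.06. None of these 3 genes overlapped between the groups, as for 633 of the 637 called genes. Erbb4, a receptor for neuregulin, read 6.51, 6.46 and 6.61 against 5.33, 5.18 and 4.73 (change -1.45, SE 0.216).

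Genes of structural and regulatory proteins were also among the 59 even lower genes, of which only some are named here. Sgcd, the δ-sarcoglycan of the dystrophin complex, fell from 8.14, 8.42 and 8.32 to 7.04, 6.88 and 6.76 (change -1.4, SE 0.215, limma adjusted p = 0.000713). Fhl2, a LIM protein of the Z-disc, fell from 11.65, 11.6 and 11.53 to 10.64, 10.82 and 10.46. Mef2c, a core cardiac transcription factor, fell from 7.92, 8.07 and 8.11 to 7.4, 7.33 and 7.38, a small but even change of -0.66 (SE 0.106, limma adjusted p = 0.0011). Itgb6, an integrin subunit, fell by 1.79. Zfpm2, a cofactor of GATA4, fell by 0.84, a call lost without tamoxifen replicate 2 (change -0.81, limma adjusted p = 0.0746). Asb5 and B3galt2 fell by 1.51 and 1.89, but lost their calls without tamoxifen replicate 1 (limma adjusted p = 0.11 and 0.0809) and without replicate 2 (0.157 and 0.148). Of the 28 named even genes, 15 remained called whichever of the 6 arrays was left out.

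Among the even genes that rose, Hmox1, the inducible haem oxygenase and a target of the factor NRF2, read 6.03, 5.87 and 6.25 in the controls and 8.5, 8.43 and 8.5 after tamoxifen. It was 5.39-fold higher (change 2.43, SE 0.333, limma adjusted p = 2.65e-04, and 0.00609 with the 6 arrays alone, n = 3 per group), with the mild array as high as the others. Gpnmb, a glycoprotein of phagocytic macrophages and stressed lysosomes, read 4.16, 3.78 and 4.5 against 6.92, 6.25 and 6.63 (change 2.45, SE 0.284, limma adjusted p = 4.85e-05). Its controls lay below log2 5, near background, so the change is measured from there. Klhl40, a muscle protein that stabilises thin filament proteins, read 6.08, 6.04 and 5.76 against 7.93, 7.64 and 7.47 (change 1.72, SE 0.172).

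The summed level of 17 skeletal muscle markers was 12.49 to 12.67 in the controls and 13.24, 13.18 and 13.19 after tamoxifen, above every control. Bright genes weigh most in this sum too, and Ckm is also a cardiomyocyte marker. Of the 10 markers tested 3 rose and 0 fell, against 3.18% of all genes that rose. The 3 were Mybpc2, which was even, and Tnnt1 and Tnnt3, which were of another order. Mybpc2, the fast skeletal myosin-binding protein C, read 6.59, 7.25 and 6.76 in the controls and 8.74, 8.46 and 8.65 after tamoxifen. Ndnf, a secreted factor of the vasculature, read 5.07, 5.27 and 5.46 against 6.47, 7.23 and 7.17 (change 1.69, SE 0.264, limma adjusted p = 8.04e-04). Mybpc2 lost its call without tamoxifen replicate 1 (change 1.64, limma adjusted p = 0.156) and replicate 2 (1.85, 0.162). Sv2a, a synaptic vesicle glycoprotein, rose by 1.2, Ptk2b, a calcium-activated tyrosine kinase, by 1.25 and Olfml2b, a matrix protein, by 1.64. Each of these 3 also lost its call without replicate 1 (limma adjusted p = 0.0717, 0.123 and 0.142) and without replicate 2 (0.119, 0.139 and 0.207), and Olfml2b also without control replicates 1 (0.0574) and 3 (0.0658).

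Promoter windows of 4 genes that rose are printed as examples of the AP-1 motif, which FOS and JUN family factors bind. The motif searched was TGANTCA, whose reverse complement is the same pattern, in the RefSeq table of build GRCm38.p6, which gives 250 bases before and 50 after each transcription start. It was present in 11.1% of 505 called genes with a promoter and in 6.06% of 9112 tested ones, and in 7.81% of all 32851 promoters. The share was 10.2% among called genes that rose and 12.3% among those that fell, so it was not particular to genes that rose. It was 12.5% in even, 6.11% in graded and 14.3% in other-order genes that rose, against 5.95% of tested genes with a higher mean, called or not. The windows below run from 120 bases before to 30 after the start, 5′ to 3′ on the gene's strand, with the motif in capitals; 4.16% of all 32851 such windows hold it. They are 2 even genes, Gpnmb (chr6:49036398-49036547, plus strand) and Klhl40 (chr9:121777487-121777636, plus strand), Srxn1 of another order (chr2:152105404-152105553, plus strand) and the graded Cd68 (chr11:69666141-69666290, minus strand), and were chosen for holding the motif.
Gpnmb: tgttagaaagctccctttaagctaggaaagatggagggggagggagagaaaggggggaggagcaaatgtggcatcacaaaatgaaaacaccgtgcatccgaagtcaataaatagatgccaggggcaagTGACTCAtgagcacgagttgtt
Klhl40: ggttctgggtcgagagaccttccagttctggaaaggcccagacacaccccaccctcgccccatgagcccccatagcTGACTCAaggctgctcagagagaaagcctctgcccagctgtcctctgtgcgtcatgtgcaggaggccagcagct
Srxn1: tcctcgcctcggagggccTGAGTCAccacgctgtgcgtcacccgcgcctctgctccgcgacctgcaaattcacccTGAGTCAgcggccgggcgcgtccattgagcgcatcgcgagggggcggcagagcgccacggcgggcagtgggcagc
Cd68: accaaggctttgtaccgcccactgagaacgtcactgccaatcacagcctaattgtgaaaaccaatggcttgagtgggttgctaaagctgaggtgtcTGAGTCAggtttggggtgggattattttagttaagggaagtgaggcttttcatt
The antioxidant response motif TGACNNNGC was in 16.6% of called and 16.6% of tested genes, and the E-box CACGTG in 13.1% and 11.9%. A match describes letters in these windows and shows no binding.

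Gene length, which the classes did not use, set the even lower genes apart from all genes tested. Their median length was 201 kb (quartiles 90.1 and 398 kb), against 23.1 kb (9.39 and 55.8 kb) over the tested genes with a length. Of the 59 even lower genes, 44 were longer than 100 kb (74.6%) and 23 longer than 300 kb (39%), against 13.1% and 2.43% of tested genes. Graded lower genes had a median of 48.7 kb and lower genes of another order 74.5 kb. Even higher and graded higher genes had medians of 26.3 and 18.2 kb, close to the median of all genes. Cacna1c spans 610 kb, Fgf13 523 kb, Fhod3 425 kb, Erbb4 1080 kb and Sgcd 1020 kb.

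Read from the other side, 54 of the 276 tested genes longer than 300 kb were called lower (19.6%) and 0 were called higher. In the range of 100 to 300 kb, 81 of 1218 were lower (6.65%) and 18 higher (1.48%), and in each shorter range 1.25% to 1.57% were lower and 2.9% to 3.99% higher. The median difference of the genes longer than 300 kb was -0.17, -0.17 and -0.31 on tamoxifen replicates 1, 2 and 3, with the mild replicate 2 as low as replicate 1. All 3 treated arrays lay below the control mean in 147 of the 276 (53.3%), against 20.4% of all genes tested. The median change of these genes was 0.04 after 1 injection and 0.03 in wild-type mice. Without tamoxifen replicate 3, 55 of the 276 were called lower and 1 higher. Among genes with a mean log2 value over 8, 28.5% of those longer than 100 kb and 4.11% of the others were called lower, and from 6 to 8 the shares were 6.79% and 0.929%.

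**Figure D3:**
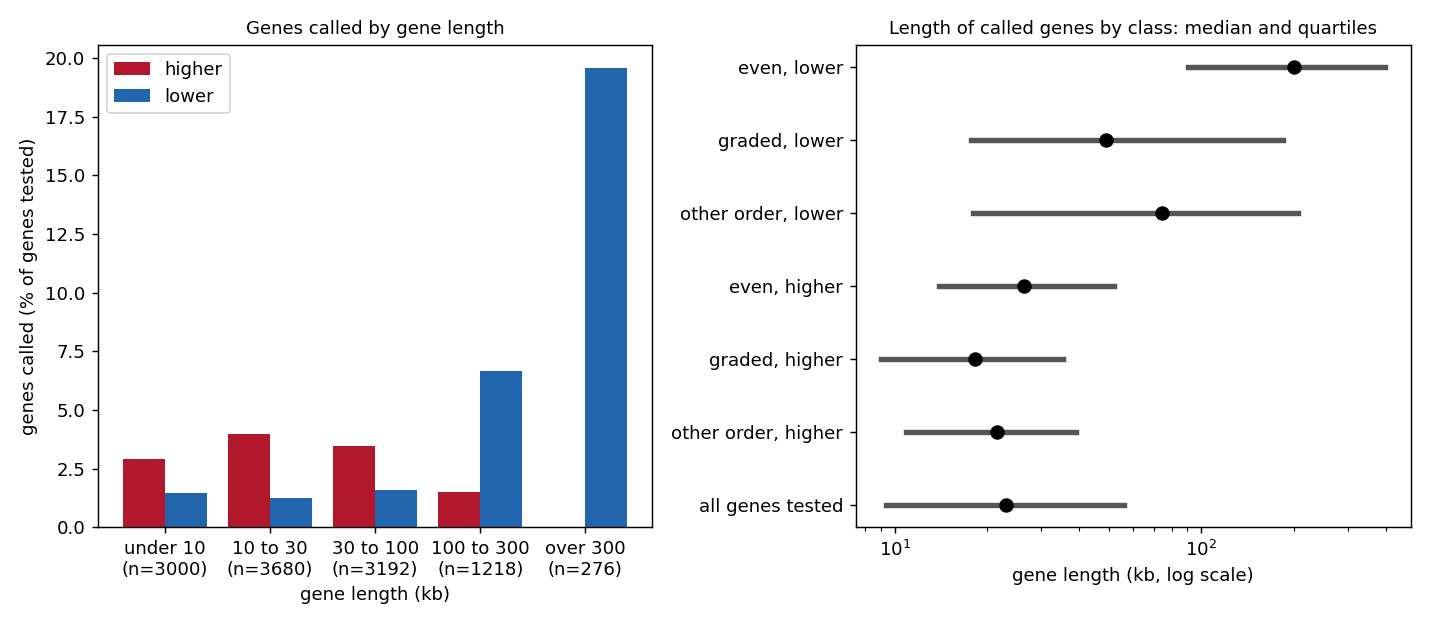
Left, percent of tested genes called higher or lower by gene length (kb), with the number tested under each pair of bars. Right, median (point) and quartiles (bar) of gene length on a log axis for each class; the even lower genes have a median of 201 kb and all genes tested 23.1 kb.

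The macrophage markers that rose were nearly all graded. Of 31 macrophage and monocyte markers tested, 21 rose and 0 fell, and 20 of the 21 were graded; 3.18% of all genes rose. These 20 are a minority of the 165 graded genes that rose. Their median difference was 0.85, 0.36 and 1.86 on tamoxifen replicates 1, 2 and 3, against 0.06, 0.01 and -0.01 over all genes. Without replicate 3, 11 of the 31 were called higher and the median change was 0.57 in place of 1.02. Cd68, a lysosomal membrane protein of macrophages, read 6.31, 6.33 and 6.13 in the controls and 7.57, 7.16 and 8.91 after tamoxifen (change 1.62, SE 0.249, limma adjusted p = 7.13e-04, and 1.1 without replicate 3). Replicate 3 stood well above the other treated arrays. Itgam, the integrin subunit CD11b, read 5.09, 5.34 and 5.2 against 6.52, 5.79 and 8.04, a change of 1.57 that was 0.96 without replicate 3. Mrc1, the mannose receptor, read 6.72, 6.61 and 6.66 against 7.99, 7.2 and 8.46.

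Of 16 tested chemokines and chemokine receptors 5 rose and 0 fell, 4 of them graded, and 4 rose without replicate 3. The list's medians were 0.11, 0.13 and 0.32, with no lower value on replicate 2 than on replicate 1. Ccl12, a monocyte chemoattractant, read 4.52, 4.73 and 4.36 in the controls, near background, and 6.74, 6.22 and 8.06 after tamoxifen (change 2.47, SE 0.486). It lost its call without tamoxifen replicate 1 (change 2.53, limma adjusted p = 0.051). Of 15 complement genes 7 rose and 0 fell, 6 of them graded, with medians of 0.43, 0.18 and 1.13 by array. Without replicate 3, 5 rose and the median change was 0.33 in place of 0.58. C5ar1, the receptor for the anaphylatoxin C5a, read 5.13, 5.03 and 4.8 against 6.07, 5.78 and 7.38 (change 1.42, and 0.93 without replicate 3). Cfp, properdin, an activator of the alternative pathway, rose by 1.22. The lists share members: C1qa, C1qb and C1qc of the complement genes that rose and Pf4 of the chemokines are also macrophage markers above. The summed macrophage marker level, which includes these shared genes, moves with the 2 lists on the 3 arrays, and its part in their change was not tested.

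Outside that marker list, Cd24a, a small surface glycoprotein, read 4.31, 4.31 and 4.56 in the controls and 6.29, 5.56 and 8.49 after tamoxifen, a change of 2.38 that was 1.55 without replicate 3. Syt12, a synaptotagmin, read 4.53, 4.62 and 4.15 against 6.23, 5.85 and 7.49 (change 2.09, SE 0.319, limma adjusted p = 6.85e-04). Both were measured from controls near background. From the marker list, Ms4a6d, a membrane protein of monocytes and macrophages, rose by 1.76, and by 0.93 without replicate 3. Ms4a6c (1.59), from the list, and Lilr4b (1.57), outside it, lost their calls without any 1 of the 3 treated arrays (limma adjusted p = 0.0583 to 0.0839) and without some control arrays. Rcan1, an inhibitor of calcineurin that calcineurin signalling itself induces, rose from 8.29, 8.2 and 8.02 to 9.09, 8.77 and 9.87 (change 1.07, SE 0.207).

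Of the 89 graded genes that fell, those with the largest changes are described. Asb15, a muscle subunit of ubiquitin ligases, read 8.09, 8.1 and 8.25 in the controls and 6.02, 6.07 and 4.49 after tamoxifen (change -2.62, SE 0.253, limma adjusted p = 9.97e-06). Dhrs7c, a dehydrogenase of the sarcoplasmic reticulum, read 9.48, 9.41 and 9.63 against 7.88, 8.68 and 5.66, a change of -2.09 that was -1.19 without replicate 3. Ppargc1a, the coactivator PGC-1α that drives mitochondrial gene expression, read 8.21, 8.23 and 7.99 against 6.69, 7.58 and 6.14 (change -1.34, SE 0.253). Replicate 2 lay nearest to the controls for Dhrs7c and Ppargc1a.

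Further graded genes that fell included Kcnj3, a subunit of the acetylcholine-activated potassium channel, from 7.67, 7.84 and 7.77 to 6.54, 6.85 and 4.68 (change -1.74, and -1.07 without replicate 3). Mylk4, a kinase of the myosin light chain kinase family, fell by 1.82, Coq8a, needed for coenzyme Q synthesis, by 1.45 and Rbfox1, a splicing factor of muscle and neurons, by 1.48. Pln, phospholamban, the inhibitor of the calcium pump, fell from 12.57, 12.56 and 12.6 to 11.92, 12.26 and 11.24 (change -0.77, and -0.49 without replicate 3). Agtr1a, the angiotensin receptor, fell by 1.32 and Mitf, a transcription factor of lysosomal and melanocyte genes, by 1.15. Angpt1, the angiopoietin that binds TIE2 on endothelium, fell by 2.1 (limma adjusted p = 0.0401) but was not called without any 1 of the treated arrays (limma adjusted p = 0.0735 to 0.134) or without control replicate 2 (0.0592). Art4, an ADP-ribosyltransferase family member, fell by 1.4 and lost its call without tamoxifen replicate 1 (limma adjusted p = 0.122), tamoxifen replicate 2 (0.109) or control replicate 3 (0.0653).

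Genes of another order rose or fell on all 3 arrays without following the array differences, and many were led by replicate 3 with replicate 2 ahead of replicate 1. Timp1, an inhibitor of matrix metalloproteinases, read 5.31, 5.43 and 5.38 in the controls and 6.45, 7.63 and 11.51 after tamoxifen. It changed by 3.16 (SE 0.685, limma adjusted p = 0.0101), and by 1.66 without replicate 3. Tnnt1, the slow skeletal troponin T, read 6.41, 6.52 and 6.48 against 8.05, 9.98 and 10.45, an 8.14-fold rise (change 3.03, SE 0.302, limma adjusted p = 1.01e-05). Aldh1a2, a retinoic acid synthesising enzyme of the epicardium, read 4.57, 5.59 and 5.42 against 6.11, 6.91 and 9.82, with a change of 2.42 that was 1.37 without replicate 3. Krt18, a keratin, read 4.59, 4.63 and 4.97 against 5.64, 7.07 and 7.42 (change 1.98, SE 0.274). On these 4 genes the array with the smallest overall difference, replicate 2, lay above replicate 1.

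Several muscle genes fell in that order too. Dmd, which encodes dystrophin over 2390 kb, read 8.56, 8.71 and 8.58 in the controls and 7.23, 6.21 and 5.37 after tamoxifen (change -2.35, SE 0.23, limma adjusted p = 1.01e-05). Ryr2, the ryanodine receptor that releases stored calcium, read 11.39, 11.48 and 11.4 against 10.78, 10.15 and 9.31 (change -1.34, SE 0.183). Kcnd2, a pore subunit of the transient outward potassium current, read 7.63, 7.47 and 8.03 against 6.57, 6.04 and 4.52. For each of the 3 the step from the controls was smallest on replicate 1 and largest on replicate 3, and without replicate 3 the changes were -1.91, -0.96 and -1.43. Asb14, a ubiquitin ligase subunit, fell from 8.97, 8.84 and 9.04 to 7.08, 6.87 and 3.5 (change -3.13, and -1.97 without replicate 3). Kcnip2, the auxiliary subunit of the same potassium channel, fell by 2.3, and by 1.27 without replicate 3. Yipf7, a Golgi membrane protein family member of muscle, fell by 2.26.

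Replicate 1 led a different group. Agt, angiotensinogen, the precursor of angiotensin, read 5.85, 5.52 and 5.31 in the controls and 9.67, 6.75 and 6.61 after tamoxifen (change 2.12, SE 0.378, and 1.2 without replicate 1). Cdh2, the cadherin of the intercalated disc that joins cardiomyocytes, read 10.16, 10.28 and 10.28 against 8.27, 8.74 and 9.54 (change -1.39, SE 0.172, limma adjusted p = 1.05e-04). Slc8a1, the sodium-calcium exchanger, read 9.63, 9.95 and 9.69 against 7.85, 8.26 and 9.03 (change -1.38, SE 0.206). On Cdh2 and Slc8a1 the order ran opposite to many genes above, with replicate 3 nearest to the controls. Gja1, connexin 43 of the gap junctions, read 10.71, 10.73 and 10.78 against 9.36, 9.82 and 10.37 (change -0.89, limma adjusted p = 0.0068). It kept 1 order with Cdh2, but was not called without tamoxifen replicate 1 (change -0.68, limma adjusted p = 0.13) or 2 (-0.86, 0.109).

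In 3 further genes replicates 1 and 3 lay close together and above replicate 2. Lcn2, lipocalin-2, an acute phase protein, read 4.79, 4.69 and 4.74 in the controls, near background, and 8.22, 5.02 and 8.18 after tamoxifen. It changed by 2.4 (SE 0.469, limma adjusted p = 0.00492) and lost its call without replicate 1 (change 1.9, limma adjusted p = 0.0836). Slc3a2, the heavy chain of amino acid transporters, rose from 8.7, 8.84 and 8.94 to 10.26, 9.28 and 10.07, and Tnnt3, the fast skeletal troponin T, from 4.86, 4.72 and 4.92 to 7.14, 5.77 and 7.09, with replicate 2 at 0.94 above the control mean. Replicate 2 led 24 of the 362 higher genes, among them Kcnj5, a potassium channel subunit, at 7.92, 8.18 and 7.9 against 8.27, 9.35 and 8.72 (change 0.78, and 0.51 with limma adjusted p = 0.352 without replicate 2).

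**Figure D4:**
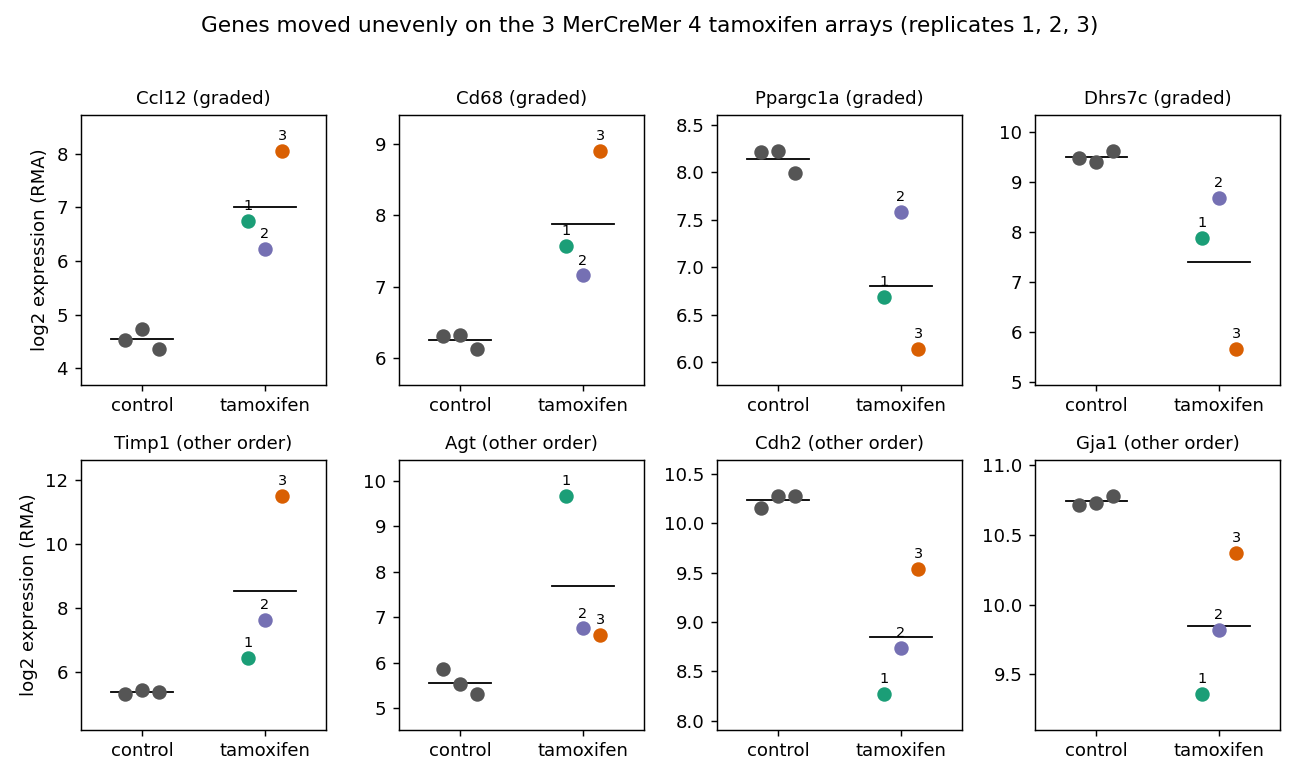
Log2 expression of graded genes (Ccl12, Cd68, Ppargc1a, Dhrs7c) and genes of another order (Timp1, Agt, Cdh2, Gja1) on the 3 control arrays (grey) and on tamoxifen replicates 1, 2 and 3 (coloured, numbered); black lines are group means. Replicate 3 lies farthest from the controls for Cd68 and Dhrs7c, and replicate 1 for Agt and Cdh2.

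Gene lists separated in the same way, as medians of the difference from the control mean on replicates 1, 2 and 3. Of 14 tested calcium channel and calcium release genes 4 fell and 0 rose, with medians of -0.24, -0.21 and -0.87; besides Cacna1c and Ryr2, Trdn, triadin of the release complex, fell from 9.43, 9.36 and 9.58 to 8.26, 8.17 and 6.9. Of 20 potassium channel genes 8 fell and 1 rose (medians -0.12, -0.26 and -1.0). Of 20 intercalated disc genes 5 fell and 0 rose, with medians of -0.4, -0.04 and -0.3 that were lowest on replicate 1. Ctnna3, an α-catenin of that disc, fell from 8.14, 8.35 and 8.28 to 7.17, 6.58 and 5.72, and Tmem65, a disc membrane protein, by 1.13. Core cardiac transcription factors were likewise lowest on replicate 1, with medians of -0.52, -0.11 and -0.33, and 3 of 22 fell. Of 23 ASB and other muscle ubiquitin ligase genes 8 fell and 0 rose (medians -0.32, -0.32 and -0.85). Without replicate 3, 6 of the 23 fell and their median change was -0.28 in place of -0.57; for the potassium channels it was 7 of 20 and -0.22 in place of -0.42, and for the calcium channels 4 of 14 and -0.25 in place of -0.38. For comparison, 2.42% of all tested genes fell.

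Several main motor and pump genes were not called, at levels near the top of the scale where compression of the signal was not tested. Atp2a2, the calcium pump of the sarcoplasmic reticulum, read 12.68, 12.67 and 12.66 in the controls and 12.61, 12.63 and 12.44 after tamoxifen (change -0.11, SE 0.093, limma adjusted p = 0.598), all 3 treated arrays below all controls. Myh6 and Myh7, the fast and slow cardiac myosin heavy chains, were at -0.09 (SE 0.0989) and 0.22 (SE 0.522), and Actc1, cardiac actin, at 0.04 (SE 0.0916). Ttn, titin, spans 279 kb and was at -0.43 (SE 0.162, limma adjusted p = 0.13), with treated arrays at 10.91, 11.21 and 10.83 and controls at 11.27 to 11.54. Of 17 myosin and thick filament genes 0 fell and only Mybpc2 rose. The natriuretic peptide genes Nppa and Nppb, markers of wall stress, were at 1.02 (SE 0.692, limma adjusted p = 0.472) and 1.73 (SE 0.798, limma adjusted p = 0.238). Nppb read 9.36, 10.94 and 12.11 on the treated arrays and 8.72 to 9.41 in the controls, which overlapped on replicate 1. Myl7, the atrial myosin light chain, read 8.6, 8.11 and 8.43 in the controls and 4.07, 4.72 and 5.04 after tamoxifen, without overlap. It also varied widely between untreated arrays, at 4.03, 4.05 and 8.93 after 1 control injection and 4.22 to 7.02 in wild-type controls. The treated values lie within that range. Myl7 was not called (change -3.77, SE 2.19, limma adjusted p = 0.373), but was with equal weights (limma adjusted p = 0.0211) and with the 6 arrays alone (SE 0.262, limma adjusted p = 0.0129). The part of atrial tissue in this value was not tested.

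Fuel oxidation lists were lowest on replicate 3. Over all genes 2.42% fell, and the complexes II to V below are near that share. Of 36 fatty acid uptake and oxidation genes 4 fell and 0 rose, with medians of 0.03, -0.27 and -1.21; without replicate 3, 2 fell and the median change was -0.15 in place of -0.49. Hadhb, the β-subunit of the mitochondrial trifunctional protein, read 11.68, 11.73 and 11.74 in the controls and 11.5, 11.25 and 10.26 after tamoxifen (change -0.72, and -0.35 without replicate 3). Cd36, a fatty acid transporter, fell by 0.74, and by 0.46 without replicate 3, and lost its call without replicate 2 (limma adjusted p = 0.0633). None of 35 complex I genes was called, with medians of -0.02, -0.1 and -0.7, and 1 of 41 genes of complexes II to V fell (-0.04, -0.06 and -0.49). Without replicate 3 the median changes of these lists were -0.09 and -0.05, in place of -0.29 and -0.19, and 0 genes were called. Of 35 tricarboxylic acid cycle and branched-chain amino acid genes 5 fell, and 1 without replicate 3, with medians of -0.02, -0.15 and -0.8. Of 24 regulators of these genes 4 fell and 0 rose, with medians of -0.19, -0.12 and -0.77, and 4 fell without replicate 3. Besides Ppargc1a, Esrrg, a nuclear receptor of oxidative metabolism, fell from 7.8, 7.92 and 7.85 to 7.1, 6.95 and 6.52 (change -1.0, SE 0.154). The cardiomyocyte marker sum was lowest on the same array, and its part in these values was not tested.

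The proteasome, NRF2 and heat shock lists had small medians that lay close together on the 3 arrays. Over all genes 3.18% rose. Their called members were mostly not even: 2 of the 4 proteasome genes that rose were even, 1 of the 4 NRF2 targets and 0 of the heat shock genes. Of 37 proteasome genes 4 rose and 0 fell, 28 lay above all controls on all 3 treated arrays (16.6% of all genes did), and the medians were 0.3, 0.23 and 0.38. Psmd1, a subunit of the regulatory particle, read 9.24, 9.17 and 9.2 against 9.52, 9.6 and 9.67, a rise of 0.39 that lost its call without tamoxifen replicate 1 (0.43, limma adjusted p = 0.0828) or 2 (0.39, 0.191). Of 30 NRF2 targets, genes of the antioxidant response, 4 rose and 0 fell (medians 0.21, 0.3 and 0.37), and 7 rose without replicate 3. Besides Hmox1, Txnrd1, thioredoxin reductase, rose from 6.93, 7.07 and 7.06 to 7.77, 7.68 and 8.27 (change 0.89, SE 0.154). Srxn1, sulfiredoxin, rose from 6.64, 6.47 and 6.62 to 7.08, 7.49 and 7.86 (change 0.9, limma adjusted p = 0.00467, and 0.0809 without replicate 2). Of 33 heat shock genes 2 rose and 1 fell, with medians of 0.14, 0.15 and 0.18.

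**Figure D5:**
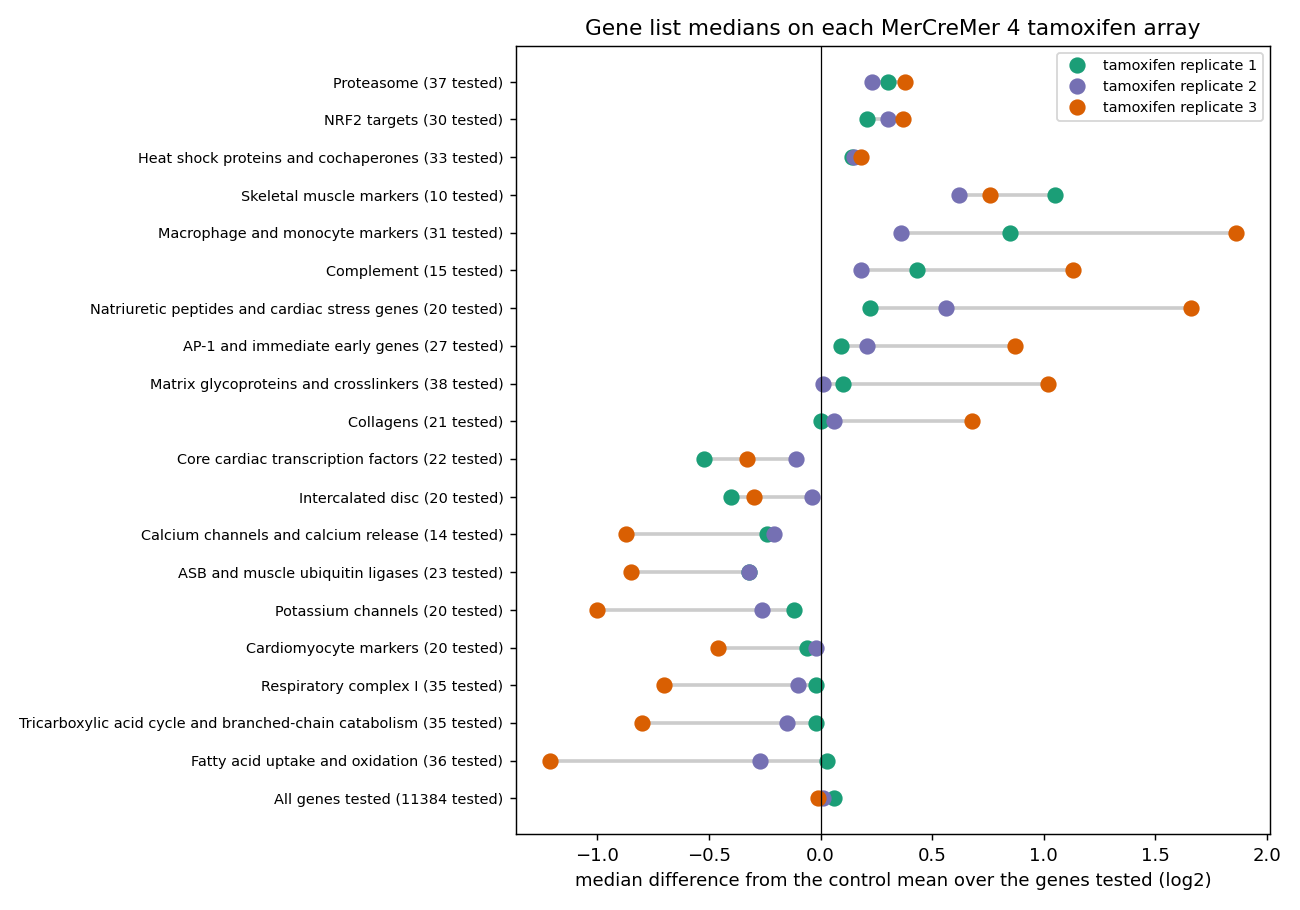
Median difference from the control mean (log2) over the tested genes of 19 lists and over all genes tested, for tamoxifen replicates 1, 2 and 3. The 3 points lie close together for proteasome (0.3, 0.23 and 0.38) and apart for macrophage markers (0.85, 0.36 and 1.86) and fatty acid oxidation (0.03, -0.27 and -1.21).

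Other stress, signalling and matrix lists were highest on replicate 3, and several of their counts are near the 3.18% of all genes that rose. Of 20 natriuretic peptide and cardiac stress genes 4 rose and 1 fell (medians 0.22, 0.56 and 1.66), and 3 rose without replicate 3. Of 27 AP-1 and immediate early genes 3 rose and 0 fell (medians 0.09, 0.21 and 0.87). Atf3, a stress-induced transcription factor, rose from 5.34, 5.38 and 5.16 to 6.53, 6.72 and 7.83 (change 1.73, SE 0.326, limma adjusted p = 0.00414). Of 40 genes of the unfolded protein and integrated stress response 4 rose and 1 fell (medians 0.14, 0.01 and 0.69). Slc7a5, a transporter of large neutral amino acids, rose by 1.11, and by 0.71 without replicate 3. Collagens had medians of 0.0, 0.06 and 0.68 with 1 of 21 called, and matrix glycoproteins and crosslinkers 0.1, 0.01 and 1.02 with 1 rising and 1 falling of 38. Without replicate 3 the median changes were -0.01 in place of 0.21 for collagens, 0.09 in place of 0.44 for the matrix list and 0.09 in place of 0.28 for the unfolded protein list, with 0, 0 and 3 rising. Col1a1, the main fibrillar collagen, read 9.03, 9.02 and 8.95 in the controls and 9.33, 9.19 and 11.2 after tamoxifen, and was not called (change 0.9, SE 0.423, limma adjusted p = 0.246). Of 20 cell cycle genes 3 rose and 0 fell (medians 0.17, 0.15 and 0.83), and 1 rose without replicate 3.

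Lists on DNA damage gave few calls. Over all genes 5.6% were called, and at that share lists of their size would also hold few. None of 34 DNA repair and damage signalling genes was called, with medians of 0.0, 0.0 and -0.05. Of 30 listed p53 targets 22 were tested. The p53 targets Cdkn1a and Bax had no probe set that names 1 gene, so they were not tested. Of the 22, 0 rose and 1 fell, with medians of 0.18, 0.03 and 0.11. With equal weights for all arrays 6 of the 22 rose and 3 fell, where 1583 and 1071 of all 11384 genes did. The gene that fell was Perp, a desmosomal p53 target, from 9.05, 9.04 and 9.08 to 8.55, 8.34 and 8.21 (change -0.69, limma adjusted p = 0.0341). That call was lost without tamoxifen replicate 1 (0.113), tamoxifen replicate 2 (0.262) or control replicate 1 (0.0506) or 3 (0.0684). Mdm2, the p53-induced ligase that degrades p53, read 7.28, 7.33 and 7.26 in the controls and 7.74, 7.58 and 7.57 after tamoxifen; it was chosen after its values were seen. Of 38 interferon response genes 1 rose (medians 0.3, 0.05 and 0.41), near the 3.18% of all genes that rose. None of 20 circadian, 74 mitochondrial ribosome and 50 cytosolic ribosome genes was called, although 22 of the mitochondrial ribosome genes lay below all controls on all 3 treated arrays (11.3% of all genes did).

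Wild-type mice and a single injection gave almost no called genes. Tamoxifen in wild type called 4 of 11384 genes (0.0351%), 3 higher (0.0264%) and 1 lower (0.00878%). One injection in MerCreMer mice called 1 gene, which was higher (0.00878%). At an unadjusted p under 0.05 there were 931 genes (8.18%) in wild type and 682 (5.99%) after 1 injection. The called genes were Cyfip2 (0.78), Esr1 (0.77), the oestrogen receptor, Fxyd6 (0.47) and Drap1 (-0.26) in wild type and Ptprn2 (1.18) after 1 injection, and none of the 5 was called in MerCreMer mice after 4 injections. The difference of the tamoxifen effect between MerCreMer and wild type was itself called in 400 genes (3.51%), 198 higher (1.74%) and 202 lower (1.77%) in MerCreMer, and in 381 of the 637 described here, with which it shares the 6 arrays. By class these were 85 of 126 even, 130 of 254 graded and 166 of 257 other-order genes.

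The arrays after 1 injection share no sample with the comparison. The 362 higher genes had a median change of 0.05 there and 70.2% had the same sign, against 59% of all genes that were higher after 4 injections, called or not. The 275 lower genes also had a median of 0.05, and 25.5% had the same sign, against 44.2%. None of the 637 was called after 1 injection. Cacna1c was at 0.16 (SE 0.0791, limma adjusted p = 0.835), Hmox1 at 0.21 (limma adjusted p = 0.91) and Cd68 at 0.25 (limma adjusted p = 0.861). In wild-type mice, even higher and graded higher genes had medians of 0.02 and 0.07, and 77.6% of the graded higher genes had the same sign as in MerCreMer mice, against 57.2% of all higher genes. The lower genes had a median of -0.01 in wild type.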

How the data were processed

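Left ventricular RNA was measured on 21 Affymetrix whole-transcript arrays. The deposited values are log2 expression values that the authors made with RMA, per the submitters' processing notes; the version is not given in the sources used here. Array medians were 4.57 to 4.72, and precision is limited by how many arrays there are. Of 34760 probe sets, 21640 name 1 gene, 1321 several and 11799 none in the platform annotation; 99.6% of the former matched RefSeq by Entrez identifier. The probe set with the highest mean stood for each of 19937 genes, and 11384 genes at log2 5 or more on at least 3 arrays were tested. RMA brings arrays to 1 distribution, so a general shift of expression would be hidden.

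All 21 arrays entered 1 limma fit (limma 3.58.1, R 4.3.3) with group and sex as terms and 1 weight per group (0.19 for the treated group, 1.08 to 1.73 for the others). p-values were adjusted by the Benjamini-Hochberg method over all genes tested, and the fit was tested on simulated data. The weights were chosen because the treated group is uneven. Genes were named as those with the largest changes in each class and direction, with fixed panels and called list members, 153 in all. Those with the largest changes were taken only from called genes whose treated and control arrays do not overlap. The comparison, gene lists and classes were chosen with earlier results of these data known. Alternatives covered weights, arrays, sex, filter, scaling, probe sets, replicate numbers, inferred array sets and leaving out each array. Gene lengths and promoters are from RefSeq GRCm38.p6.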

Additional observations from a re-analysis of the deposited data

Results flagged for a closer look

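The tamoxifen effect differed between MerCreMer and wild-type mice in 400 genes, by the limma test of the difference itself at an adjusted p under 0.05. Of 21 tested genes of a fixed panel, 11 were among them. The effect was lower with the transgene, as MerCreMer minus wild type on the log2 scale, for Cacna1c (-2.25), Dmd (-2.37), Ppargc1a (-1.43), Ryr2 (-1.35), Gja1 (-0.89) and Pln (-0.76). It was higher for Tnnt1 (3.06), Timp1 (3.02), Gpnmb (2.39), Hmox1 (2.33) and Cd68 (1.35). In the wild-type control group of 6 arrays, 1 array read 10.35 for Gja1, far from the other 5. Gja1 was 1 of 21 genes examined in this way, and chance singles out about 1 in 20 such groups.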

How the results depend on the processing

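The 637 calls between 4 tamoxifen and 4 control injections were 2654 with equal weights, 1490 with 1 weight per array, 18 with the 6 arrays alone, 382 with the 12 MerCreMer arrays and 98 with female arrays only. They were 251 with the inferred array set as a block and 245 within the larger set, both chosen after seeing the data, and 246 to 672 without 1 array. The other counts, apart from the replicate block below, ranged from 522 to 801. In the same order of settings, even genes (126) were 365, 282 and 17 in the first 3, graded genes (254) 968 with equal weights, 0 with 6 and 133 with 12 arrays, and genes of another order (257) 1264, 774, 1 and 149 in the first 4. With the array set as a block they were 79, 87 and 85. Even genes were 190 at a limit of 0.5 and 44 at 0.75. Without 1 control array, they were 96 to 132, graded genes 150 to 233, genes of another order 169 to 249 and split genes 0. Split genes were 57 with equal weights, 134 with array weights, 3 with a robust prior, 1 each without a filter, after quantile normalisation and after centring, and 2 against same-set controls. Class values could not be had without a treated array, with females only or within the larger set. The wild-type count of 4 was 0, 2 and 24 with equal weights, array weights and females only. The count of 1 after 1 injection was 2 with array weights, without a filter or after centring, 3 with 12 arrays, 4 with females only or the array set as a block, and 0 with a filter at 6. The difference between genotypes (400 genes) was 909, 945 and 58 with equal weights, array weights and females only, and 181 to 438 without 1 array. Of 131 named calls, 64 held without each of the 6 arrays in turn and 77 with the array set as a block, and none of the named genes reversed. The cause of these changes was not tested.

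The values gave no sign that replicate numbers pair the samples: deviations of same-numbered treated and control arrays correlated at 0.112, -0.0366 and 0.0543. So few arrays, with an uneven treated group, cannot exclude a pairing, and replicate 1 is the male sample in both groups. With the replicate number as a block over the 12 MerCreMer arrays, 306 genes were called, 102 of them graded and 116 of another order, and 3 after 1 injection.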
